A study of Homo sapiens with 6 samples.

Results

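The line shlinc00598#3 was compared with the line shCTL. Both derive from HEK293T, a human cell line of embryonic kidney origin that expresses the large T antigen of a virus. Both stably express a short hairpin RNA. The hairpin of shlinc00598#3 is directed at the long noncoding RNA linc00598, and that of shCTL is a control. All arrays titled shlinc00598#3 or shCTL entered the comparison, 2 for each line and 4 in all of the 6 arrays in the series, and the arrays were paired by replicate number. The other 2 arrays come from shlinc00598#2, a line with another hairpin against the same RNA. Each hairpin is represented by 1 stable line, so the effect of a hairpin and a property of its line cannot be told apart, and no source states that the replicates were grown separately, so p-values measure the spread between arrays only. A gene was a member if both arrays of either line detected its probe (detection p under 0.05). There were 16787 members of 17220 genes and unnamed probes detected in the series, 11987 of them named genes and 4800 probes without a gene name. Of the members, 15059 were detected on both arrays of both lines, 1050 on both arrays of shCTL only and 678 on both arrays of shlinc00598#3 only.

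A short hairpin RNA is processed in the cell to a small RNA that guides the Argonaute proteins to a matching transcript, which is then cut or held back. Long noncoding RNAs kept in the nucleus can act on transcription through the proteins they bind. linc00598 lies between FOXO1 and COG6 on chromosome 13, and the study related it to FoxO1, a transcription factor of stress and growth signals, and to cyclin D2. LINC00598 itself has no named probe here, so these arrays give no value for its knockdown in shlinc00598#3. The study measured linc00598 separately, by quantitative PCR in control and shlinc00598 lines.

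The arrays detected between 44.1% and 46.8% of their probes, and their median intensities lay between 105.4 and 126.2 before normalization. Of 10 embryonic kidney and HEK293 markers with a probe, 8 were detected on all 4 arrays of the comparison, among them VIM, SALL2 and EYA1, whereas PAX2 and LHX1 were detected on 0 arrays. Of 4 endothelial markers none was detected on any of these arrays. Of the markers of other cell types, 1 of 4 for leukocytes (CD14), 2 of 4 for hepatocytes (ALB and APOA1), 2 of 6 for fibroblasts (COL1A1 and COL3A1) and 2 of 6 for muscle and tendon (TNMD and ACTA1) were detected on all 4 arrays, whereas PTPRC and CD3E, which define leukocytes and T cells, were detected on 0. The deviations of shCTL and shlinc00598#3 arrays from their line means correlated with r = 0.76 across genes, that is, arrays of the same replicate number deviated together. Genes are not independent replicates, and this value is a description. The deposited tables disagree on which array belongs to which line for 4 of the 6 arrays, and the sources do not settle it. All values here follow the table before normalization, and the names of lines and replicates rest on it. With the assignment of the processed table, the same correlation was 0.718 for shCTL and shlinc00598#3 but -0.698 for shCTL and shlinc00598#2 and -0.685 for the knockdown lines.

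Most genes differed little between shlinc00598#3 and shCTL. The median difference was -0.003 on the log2 scale, with a standard deviation of 0.181 across members, and the median 95% interval of a gene reached 0.25 to either side. In limma with the replicate number as a block, 4 members fell and none rose at a Benjamini-Hochberg adjusted p under 0.05, which is 0.0238% and 0.0% of the members. At an unadjusted p under 0.05, 1115 members were lower (6.64%) and 874 were higher (5.21%). With no replicate block, limma called 0 members, 268 (1.6%) had an unadjusted p under 0.05, and the adjusted p of each of the 4 genes was 1. With background correction by neqc, limma likewise called 0 members (lowest adjusted p 0.331, 1848 members with an unadjusted p under 0.05). The calls also depended on single arrays: without shlinc00598#3 replicate 2, no member was called, while without shCTL replicate 1, shCTL replicate 2 or shlinc00598#3 replicate 1 the counts were 184, 190 and 67.

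By the fold criterion of the study, at least 1.4-fold, 163 members were lower in the mean (0.971%) and 114 were higher (0.679%). Within the replicates, 72 members were at least 1.4-fold lower in both (0.429%) and 25 were at least 1.4-fold higher in both (0.149%). Of these, 63 and 16 are named genes. Lower members thus made up 58.8% of those past the fold in the mean and 74.2% of those past it in both replicates. Of the 72 and the 25, 7 and 2 were detected on both arrays of 1 line only. So were 26 of those past the fold in the mean, of which 0 were called. These entered through 1 line, so their direction is not independent of the detection rule. With background correction the counts in both replicates were 249 and 154, and without shlinc00598#3 replicate 1 more members were higher (340) than lower (301) in the mean. The differences in replicate 1 and in replicate 2, which share no array, correlated with r = 0.268 (Spearman 0.219) across genes, and 57.0% of members had the same sign. The genes nearest to the fold line were RIN2, just inside with -0.49 and -0.58, and AMT, just outside with -0.49 and -0.48.

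**Figure D1:**
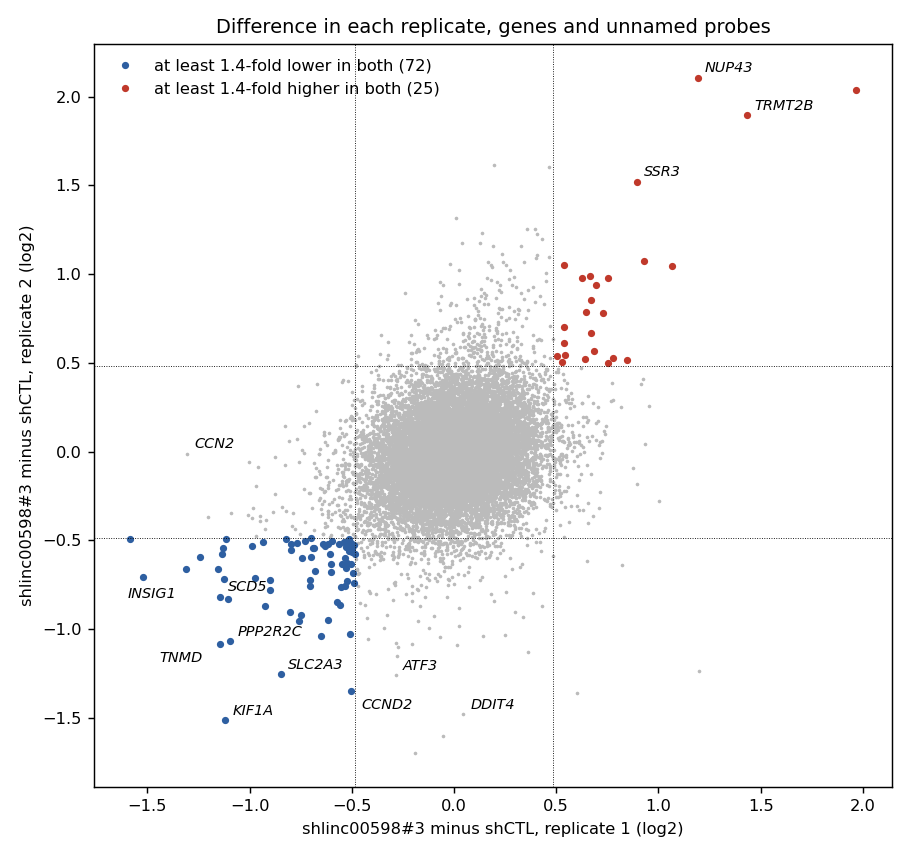
Each point is a gene or unnamed probe, placed by its log2 difference between shlinc00598#3 and shCTL in replicate 1 (x axis) and in replicate 2 (y axis), with dotted lines at 1.4-fold. The 72 points lower in both (blue) spread along the lower left, where KIF1A lies at -1.12 and -1.51, and the 25 higher in both (red) include NUP43 at 1.19 and 2.11. CCN2 was lower in replicate 1 only and DDIT4 in replicate 2 only.

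The 4 genes that fell are KIF1A, TNMD, PPP2R2C and SCD5, and each was read on all 4 arrays. KIF1A (chr2:240713767-240821403, GRCh38.p14) encodes a kinesin motor that carries synaptic vesicle precursors along axons. Its log2 intensity was 11.65 and 10.79 in shCTL and 10.53 and 9.28 in shlinc00598#3. The lines did not overlap, and within each replicate the gap was wider than 1 log2 unit. With 2 arrays per line, however, 4006 of all members (23.9%) did not overlap between the lines. KIF1A fell by 1.32 on the log2 scale (SE 0.13, 95% interval -1.61 to -1.02, 2.49-fold, limma adjusted p = 0.0256). TNMD (chrX:100584936-100599885) encodes tenomodulin, a membrane glycoprotein of tendon and ligament. Its level was 9.97 and 10.23 in shCTL and 8.83 and 9.15 in shlinc00598#3, with no overlap and nearly the same step in both replicates. It fell by 1.11 (SE 0.11, interval -1.35 to -0.87, 2.16-fold, limma adjusted p = 0.0256). Of the other markers of muscle and tendon, ACTA1 was detected on all 4 arrays, MYOD1 and MYOG on 2, and SCX and DES on 0.

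PPP2R2C (chr4:6320581-6563799) encodes a regulatory B subunit of protein phosphatase 2A that is best known from brain. It read 8.96 and 9.11 in shCTL and 7.86 and 8.04 in shlinc00598#3, so that the lines were apart by far more than their replicates. It fell by 1.08 (SE 0.12, interval -1.36 to -0.80, 2.12-fold, limma adjusted p = 0.0491). A further PPP2R2C probe, detected on 2 of the 4 arrays, was lower by a similar amount (-0.79). SCD5 (chr4:82629539-82798796) encodes a stearoyl-CoA desaturase, which puts a double bond into saturated fatty acids. Its level was 10.52 and 10.24 in shCTL against 9.38 and 9.42 in shlinc00598#3, and all shCTL values lay above all shlinc00598#3 values. SCD5 fell by 0.98 (SE 0.12, interval -1.24 to -0.72, 1.97-fold, limma adjusted p = 0.0491). With a stricter detection filter (p under 0.01 on all 6 arrays), or with the mean of a gene's probes, only KIF1A and TNMD were called.

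**Figure D2:**
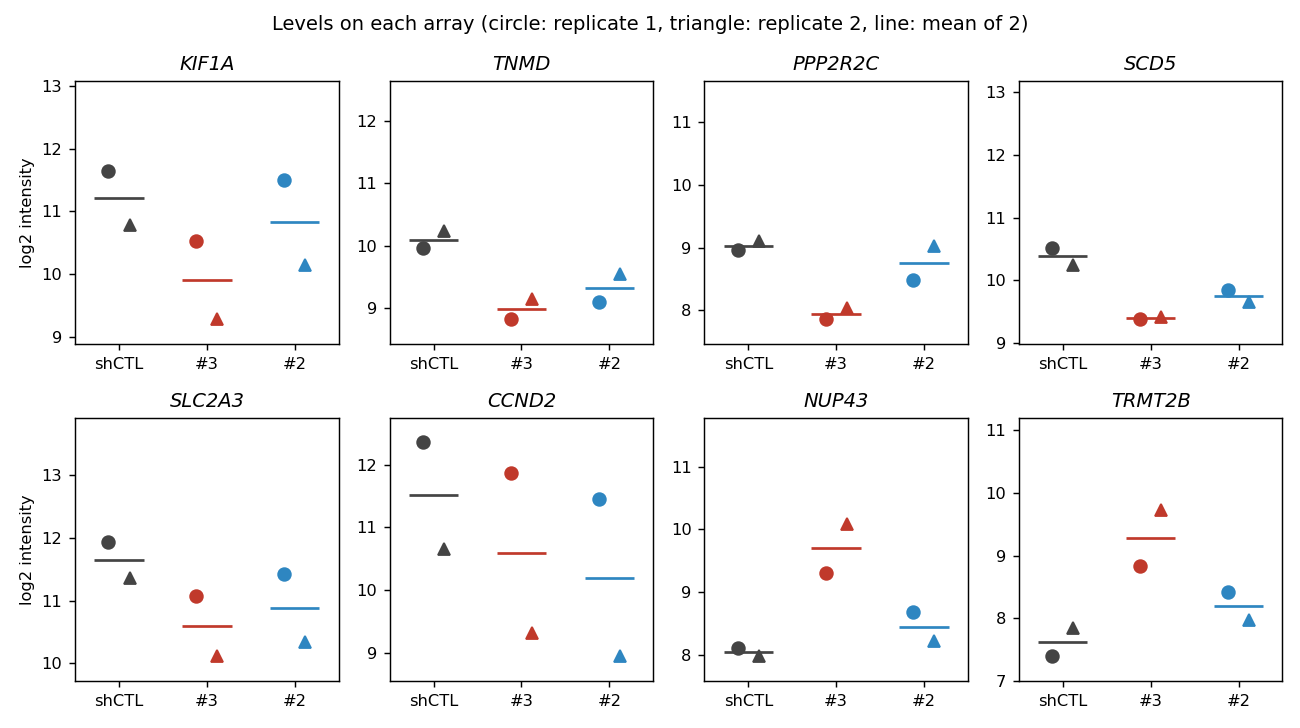
The log2 intensity of 8 genes is plotted for each array of shCTL, shlinc00598#3 (#3) and shlinc00598#2 (#2), with replicate 1 as circles, replicate 2 as triangles and the mean of 2 arrays as a line. In KIF1A, TNMD, PPP2R2C, SCD5 and SLC2A3 both #3 points lie below both shCTL points, in CCND2 the #3 and shCTL points overlap, and in NUP43 and TRMT2B both #3 points lie above.

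The families of 3 of these genes were examined. Of 30 kinesin and kinesin light chain genes detected, 9 were lower and 9 higher in both replicates, with a median of 0.00, and KIF1A was the only one called. KIF27, KIF21B and KIF3C were next, at -0.32, -0.26 and -0.22, while the close relatives KIF1B and KIF1C were at -0.14 and 0.15. KIF21B was detected on only 1 of the 2 shlinc00598#3 arrays. Of 22 subunits and regulators of protein phosphatase 2A, 10 were lower and 2 higher in both replicates with a median of -0.06. Apart from PPP2R2C the differences were small: PPP2R3B, another regulatory subunit, was at -0.30 (adjusted p = 0.327), and the other B-type subunits PPP2R2A, PPP2R2B and PPP2R2D were at -0.12, -0.11 and 0.00. Among 19 desaturases and enzymes of fatty acid synthesis, 6 were lower and 3 higher in both replicates, and SREBF1, the transcription factor that drives lipid synthesis, was at -0.15 (adjusted p = 0.713). Over all members, 29.2% were lower and 27.8% higher in both replicates.

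The promoters of TNMD and SCD5 are shown because these called genes have a single start in RefSeq (GRCh38.p14), whereas KIF1A has 3 and PPP2R2C 5. The sequences are the 250 bases before the start on the strand of the gene, chrX:100584686-100584935 (plus strand) for TNMD and chr4:82798797-82799046 (minus strand) for SCD5. Capitals mark the letters TATTT, the element that the study mutated in the CCND2 promoter, ACGTG, the core of the hypoxia-inducible factor site, and TATAAA, the TATA box, each searched on both strands, with no overlap among the matches.
TNMD: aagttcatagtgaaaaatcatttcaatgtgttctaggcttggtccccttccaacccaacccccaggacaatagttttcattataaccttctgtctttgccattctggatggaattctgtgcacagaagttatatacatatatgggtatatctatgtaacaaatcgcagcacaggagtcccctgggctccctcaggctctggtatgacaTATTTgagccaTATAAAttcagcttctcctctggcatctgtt
SCD5: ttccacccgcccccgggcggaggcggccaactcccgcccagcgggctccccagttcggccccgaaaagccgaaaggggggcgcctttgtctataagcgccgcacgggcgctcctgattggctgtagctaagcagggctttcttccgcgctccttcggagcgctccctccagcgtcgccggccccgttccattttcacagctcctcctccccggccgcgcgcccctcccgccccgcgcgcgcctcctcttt
The TNMD window holds 1 TATTT and 1 TATAAA, the latter beginning 31 bases before the start, and its GC content is 42%. The SCD5 window holds none of the 3 motifs and has a GC content of 71.2%. Among 35116 RefSeq windows of this length, 33.9% hold TATTT or its complement, 18.5% hold ACGTG and 10.7% hold TATAAA. The genes that fell therefore include both an AT-rich promoter with a TATA box and a GC-rich one without.

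Several genes next in order did not pass the threshold. SLC2A3, glucose transporter 3 of neurons and hypoxic cells, read 11.93 and 11.37 in shCTL and 11.08 and 10.12 in shlinc00598#3, without overlap, and was lower by 2.07-fold (log2 -1.05, SE 0.14, limma adjusted p = 0.0521). It has a near-identical copy, SLC2A14, so its signal is uncertain. NPTX1, a secreted pentraxin of synapses, read 10.59 and 11.20 against 9.84 and 10.28 (-0.84, SE 0.10, limma adjusted p = 0.0521). Its other probe above background, on 3 of 4 arrays, was at -0.11, but its mean log2 level was only 7.16. The lowest signal of a detected probe on these arrays was 6.95 to 7.01, and folds near it are compressed. ENO2, the neuronal enolase of glycolysis, read 9.51 and 8.76 against 8.59 and 7.90 (-0.90, adjusted p = 0.056). BASP1, a growth cone membrane protein, read 11.66 and 9.87 against 10.95 and 9.14. Its replicates were further apart than its lines, so the lines overlapped, yet the difference was -0.70 and -0.72 in the 2 replicates (mean -0.71, adjusted p = 0.056). BHLHE40, a transcriptional repressor of clock and hypoxia responses, read 12.17 and 11.93 against 11.55 and 10.98 (-0.78, adjusted p = 0.058). ARHGAP39 was at -1.15 and -0.66, without overlap (mean -0.91, limma adjusted p = 0.058). Unnamed probes also ranked here, at -0.85 (limma adjusted p = 0.0521) and -0.86 (limma adjusted p = 0.056).

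Further genes had steps of unequal size in the 2 replicates. INSIG1, the endoplasmic reticulum protein that holds back cholesterol synthesis, read 10.97 and 11.90 in shCTL and 9.44 and 11.19 in shlinc00598#3. Its lines overlapped (-1.11, SE 0.22, limma adjusted p = 0.131). Its other probe, near background at a mean log2 of 7.26 and detected on 2 of 4 arrays, was at -0.20. ADAMTS1, a secreted metalloprotease, was at -1.31 and -0.66, HES5, a Notch target and repressor, at -1.12 and -0.72, and TENT5C, a poly(A) polymerase, at -1.24 and -0.59. Their mean differences of -0.98, -0.92 and -0.92 had adjusted p-values of 0.109, 0.0862 and 0.0875. PIM1, a growth-promoting kinase, read 10.15 and 9.01 against 9.03 and 8.52, and its lines overlapped (-0.80, adjusted p = 0.121). MT1F, a metallothionein with near-identical relatives and therefore uncertain, was at -0.90 and -0.73 (-0.81, adjusted p = 0.0771), while its regulator MTF1 was at 0.13.

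On the higher side none passed the threshold, and the named genes with the highest means were TRMT2B, NUP43 and SSR3. NUP43, a subunit of the nuclear pore, read 8.11 and 7.98 in shCTL and 9.31 and 10.09 in shlinc00598#3. It was 3.14-fold higher (log2 1.65, SE 0.23, interval 1.12 to 2.18, limma adjusted p = 0.056), with no overlap. TRMT2B, a tRNA methyltransferase of mitochondria, read 7.40 and 7.84 against 8.83 and 9.73 (log2 1.66, SE 0.25, 3.17-fold, adjusted p = 0.058). SSR3, a subunit of the translocon-associated complex, read 8.36 and 7.93 against 9.26 and 9.45 (log2 1.21, adjusted p = 0.119). In these 3 genes every shlinc00598#3 value exceeded every shCTL value, and the step was larger in replicate 2. KIAA0408 was at 0.70 and 0.94 (mean 0.82, adjusted p = 0.056), and NOL9, a kinase that processes ribosomal RNA, was at 0.67 in both replicates (adjusted p = 0.0657), although it was detected on only 1 of the 2 shCTL arrays. SNORA73B, a small nucleolar RNA gene, was at 0.76 (adjusted p = 0.0771) and a further probe for it was at 0.65. ZNF69 and GOLGA8A, which have close relatives and are uncertain, were at 0.79 and 0.58. Another ZNF69 probe, near background at a mean log2 of 7.2 and detected on 3 of 4 arrays, was at 0.02. The highest member of all was a probe with no gene name, at 2.00 (SE 0.28, adjusted p = 0.056).

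The study singled out cyclin D2, and the D-type cyclins and their kinases, which start the passage from G1 to S phase, were examined next. CCND2 (chr12:4273762-4305353) read 12.37 and 10.65 in shCTL and 11.87 and 9.31 in shlinc00598#3. The replicates were further apart than the lines, the lines overlapped, and the step was much smaller in replicate 1 (-0.50) than in replicate 2 (-1.35). The mean difference was -0.93 (SE 0.18, interval -1.34 to -0.51), with an adjusted p of 0.131 in limma. The other CCND2 probe, detected on all 4 arrays, gave -0.70 and -1.18. With 1 array left out in turn the CCND2 difference lay between -1.33 and -0.52. CCND1 was lower in both replicates (-0.65 and -0.32, mean -0.49, adjusted p = 0.286), as was CDK6 (-0.34 and -0.43, mean -0.39, adjusted p = 0.222). In contrast, CCND3 was at -0.03 (-0.15 and 0.09), CDK4 was at 0.03 (interval -0.20 to 0.27) and CCNE1 was at 0.27. The list also holds CCNE1, CDK2, CDC25A and MYC. Of its 9 detected genes, 5 were lower and 2 higher in both replicates, the lower ones including MYC at -0.17 and CDK2 at -0.09. Over all members, 29.2% were lower and 27.8% higher.

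The inhibitors of these kinases and the genes of later phases were examined as well. In both replicates, 3 of 9 detected CDK inhibitors and retinoblastoma proteins were lower and 2 were higher. CDKN1C, the p57 inhibitor, was at -0.37 and -0.32 but was detected on only 1 of the 2 shlinc00598#3 arrays. CDKN2A, the p16 inhibitor, was at 0.28 and 0.20, with 0.05 from a further probe. CDKN1A, the p21 inhibitor, was at -0.13 (interval -0.40 to 0.13), and CDKN1B, the p27 inhibitor, was at 0.01 with opposite signs in the replicates (0.26 and -0.24). Among 28 S-phase genes, 3 were lower and 12 higher in both replicates, with a median of 0.06. RRM2, the small subunit of ribonucleotide reductase, was the highest of them at 0.49 (adjusted p = 0.208), with 0.48 from a further probe. Next came MCM4, a subunit of the replicative helicase, at 0.30 in each replicate (adjusted p = 0.327). Of 30 G2/M genes, 2 were lower and 8 higher in both replicates with a median of 0.03. MKI67 and CDC20 were at 0.17 and 0.20. None of these genes passed the threshold. In bulk RNA a change in the share of cells in a phase and a change in RNA per cell cannot be told apart.

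Targets of FoxO factors were examined because linc00598 neighbours FOXO1. Of 22 detected, 14 were lower and 3 higher in both replicates, the median was -0.19 against -0.003 for all members, and 0 passed the threshold. The study picked some of these genes from these arrays, so the list is not independent evidence of its direction. CITED2, a coactivator partner that limits hypoxia signalling, read 12.05 and 11.48 in shCTL and 11.04 and 11.13 in shlinc00598#3, without overlap (-0.68, adjusted p = 0.203). GADD45A, a growth arrest protein, was at -0.48 and -0.44, BCL6, a repressor, at -0.34 and -0.43, and TXNIP, an inhibitor of glucose uptake, at -0.18 and -0.77. FOXO1 itself read 9.30 and 9.31 in shCTL and 9.19 and 9.37 in shlinc00598#3, with overlap, and its difference was -0.02 (interval -0.27 to 0.23). COG6, on the other side of linc00598, was at -0.11 (interval -0.34 to 0.13). Among 15 genes of this stretch of chromosome 13, 4 were lower and 4 higher in both replicates with a median of -0.01. The widest of them were RGCC, a regulator of cell cycle, at -0.30 and VWA8 at 0.27, for which further probes were at 0.11 and -0.30.

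SLC2A3 and BHLHE40 are induced by hypoxia-inducible factor, and genes of this kind and of glycolysis were examined. Of 25 hypoxia-induced genes, SLC2A3 and BHLHE40 included, 16 were lower and 0 higher in both replicates, and the median was -0.22. Since SLC2A3 and BHLHE40 led to this list, their part in its count is not independent evidence of its direction. Besides SLC2A3 and BHLHE40, LOX, a collagen crosslinking enzyme, was at -0.38 and -0.80, and ANKRD37, an ankyrin repeat protein, at -0.49 and -0.53. Of 19 glycolytic genes, 12 were lower and 2 higher in both replicates, with a median of -0.10. After SLC2A3, the widest differences were those of ENO2 (-0.90), PFKP (-0.42), a phosphofructokinase, and ALDOC (-0.39), an aldolase, and ENO1, another enolase, was at 0.08. Of 24 neuronal genes, which HEK293T cells are known to express in part, 13 were lower and 2 higher in both replicates, with a median of -0.17. NPTX1, ENO2 and BASP1 led them, MAPT, the microtubule protein tau, was at -0.36 and -0.38, and SYN1, a synaptic vesicle protein, was at 0.31. Immediate early genes, which respond within minutes to growth factors and stress, were lower in 15 and higher in 2 of 25, with a median of -0.19. Among them KLF2 was at -0.48 and -0.61 and JUN at -0.95 and -0.36. No member of the hypoxia, glycolysis, neuronal or immediate early lists passed the threshold, and SLC2A3 and ENO2 each stand in more than 1 of these lists. SLC2A3, ENO2, NPTX1 and BASP1 had been picked above for their values. Their part in the glycolysis and neuronal counts is likewise not independent evidence of direction. The called genes KIF1A and PPP2R2C, known from axons and brain, were counted with the kinesins and phosphatase subunits and not in the neuronal list.

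**Figure D3:**
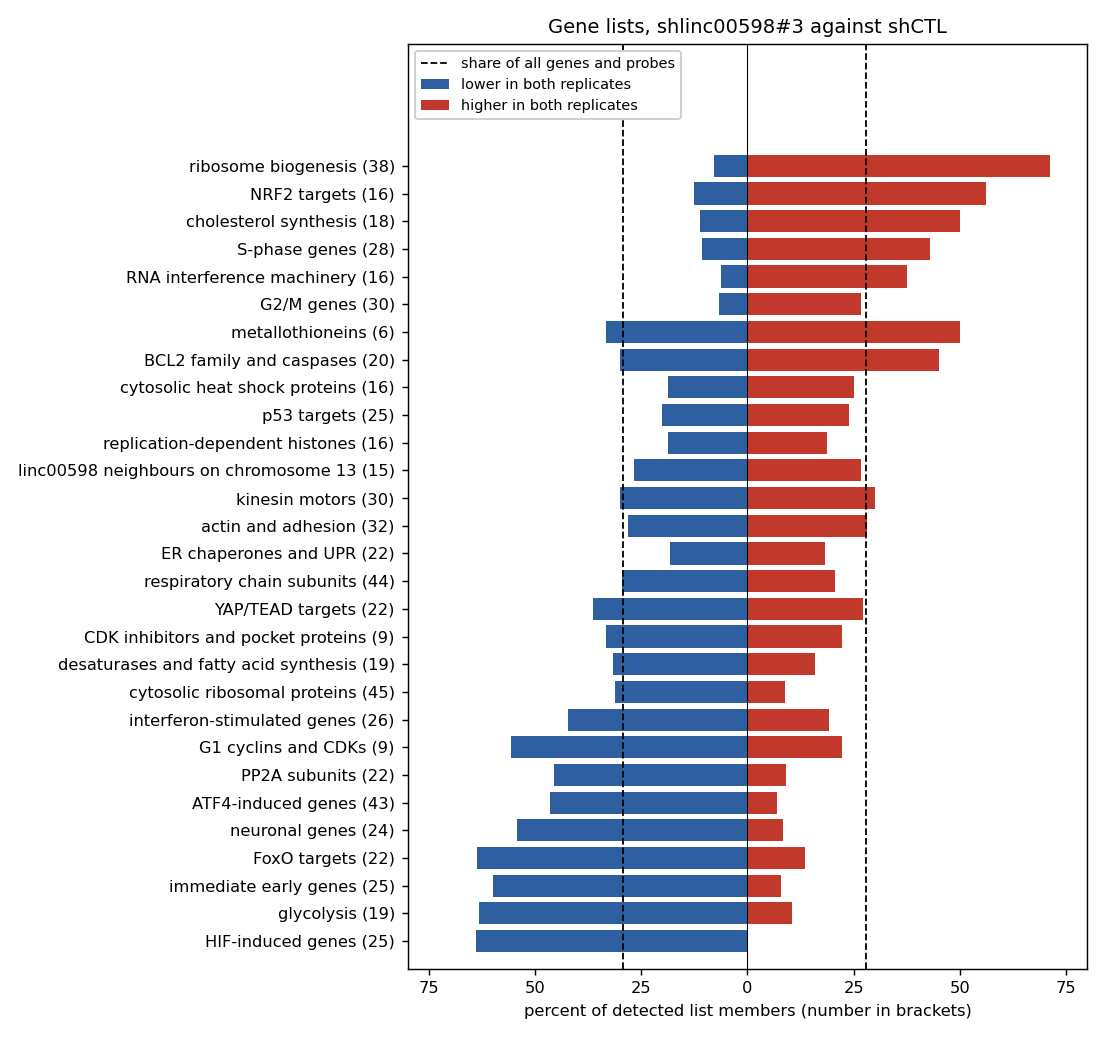
Bars give the percent of detected members of each list that were lower (blue, to the left) or higher (red, to the right) in shlinc00598#3 than in shCTL in both replicates, with the number of members in brackets and dashed lines at the shares of all members, 29.2% and 27.8%. Hypoxia-induced genes have 64.0% lower and 0.0% higher, and ribosome biogenesis genes 7.89% lower and 71.1% higher.

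Factors that build ribosomes in the nucleolus differed by small amounts. Of 38 detected, 3 were lower and 27 higher in both replicates, the median was 0.14, and it was alike in replicate 1 (0.14) and replicate 2 (0.16). PNO1, an assembly factor of the small subunit, was at 0.34 and 0.45, and MRTO4, a factor of the large subunit, at 0.26 and 0.44. RRS1 was at 0.29 and 0.41. None passed the threshold: PNO1 had the lowest adjusted p of the list, 0.232. The ribosomal proteins themselves did not share this side, with 14 of 45 lower and 4 higher in both replicates and a median of -0.04. RPL22 and RPL12 were lowest in p among them, at -0.37 and -0.30.

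Other lists had medians nearer to that of all members. Of 18 cholesterol synthesis genes, 9 were higher and 2 lower in both replicates with a median of 0.08, and INSIG1, their regulator, was one of the 2. Of 16 NRF2 targets, which protect against oxidants, 9 were higher and 2 lower with a median of 0.05, NQO1 being the highest at 0.34. The machinery of RNA interference was examined because the lines express hairpins: 6 of 16 genes were higher and 1 lower, and AGO1, an Argonaute protein, was at 0.30. Of 26 interferon-stimulated genes, which hairpin RNAs can induce, 11 were lower and 5 higher with a median of -0.08. UBE2L6, the conjugating enzyme for ISG15, read 10.33 and 9.74 in shCTL against 9.77 and 8.88 in shlinc00598#3 (-0.71, limma adjusted p = 0.0862). Its other probe detected on all 4 arrays, much dimmer at a mean log2 of 7.41, was at -0.14. Of 25 p53 targets, 5 were lower and 6 higher, and of 20 BCL2 family members and caspases, 6 were lower and 9 higher. PMAIP1, the death-promoting protein NOXA, was at -0.51 and BCL2, a survival protein, at -0.43, whereas APAF1, the core of the apoptosome, was at 0.50 and ZMAT3, a p53-induced RNA-binding protein, at 0.61, with its further probes at -0.27 and -0.12.

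Some differences were found mainly in 1 replicate. Genes induced by ATF4, the transcription factor of the amino acid and integrated stress response, had a median of 0.01 in replicate 1 and -0.50 in replicate 2. Of 43 detected, 20 were lower and 3 higher in both replicates, and 11 were at least 1.4-fold lower in the mean but only 1, SLC7A3, in both. SLC7A3, a transporter of cationic amino acids, was at -0.51 and -1.03 (adjusted p = 0.12). ATF3, a stress-induced partner of this response, was at -0.28 and -1.26. CHAC1, which breaks down glutathione, was at 0.60 and -1.36, but was detected on only 1 of the 2 shlinc00598#3 arrays. Its value of 6.61 in shlinc00598#3 replicate 2 lay below the lowest signal of a detected probe there, 7.01. DDIT4, an inhibitor of mTOR signalling, read 11.44 and 11.69 in shCTL and 11.49 and 10.22 in shlinc00598#3. Its mean difference was -0.72 (SE 0.36, adjusted p = 0.482), with 0.05 in replicate 1 and -1.48 in replicate 2. HSPA8, a chaperone, was at -0.09 and 0.68. Conversely, CCN2, a matrix protein and target of YAP, read 12.25 and 10.40 against 10.95 and 10.39, so that its step was -1.30 in replicate 1 and -0.01 in replicate 2, although a further CCN2 probe gave -0.85 and -0.38. CCN1, a related protein, was at -0.96 and -0.08. Such splits were not particular to shlinc00598#3. On the shlinc00598#2 arrays, set against the same shCTL arrays, DDIT4 read 11.21 and 9.48 and CCN2 read 11.15 and 9.99. In that line too, the DDIT4 step was larger in replicate 2 and the CCN2 step in replicate 1.

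**Figure D4:**
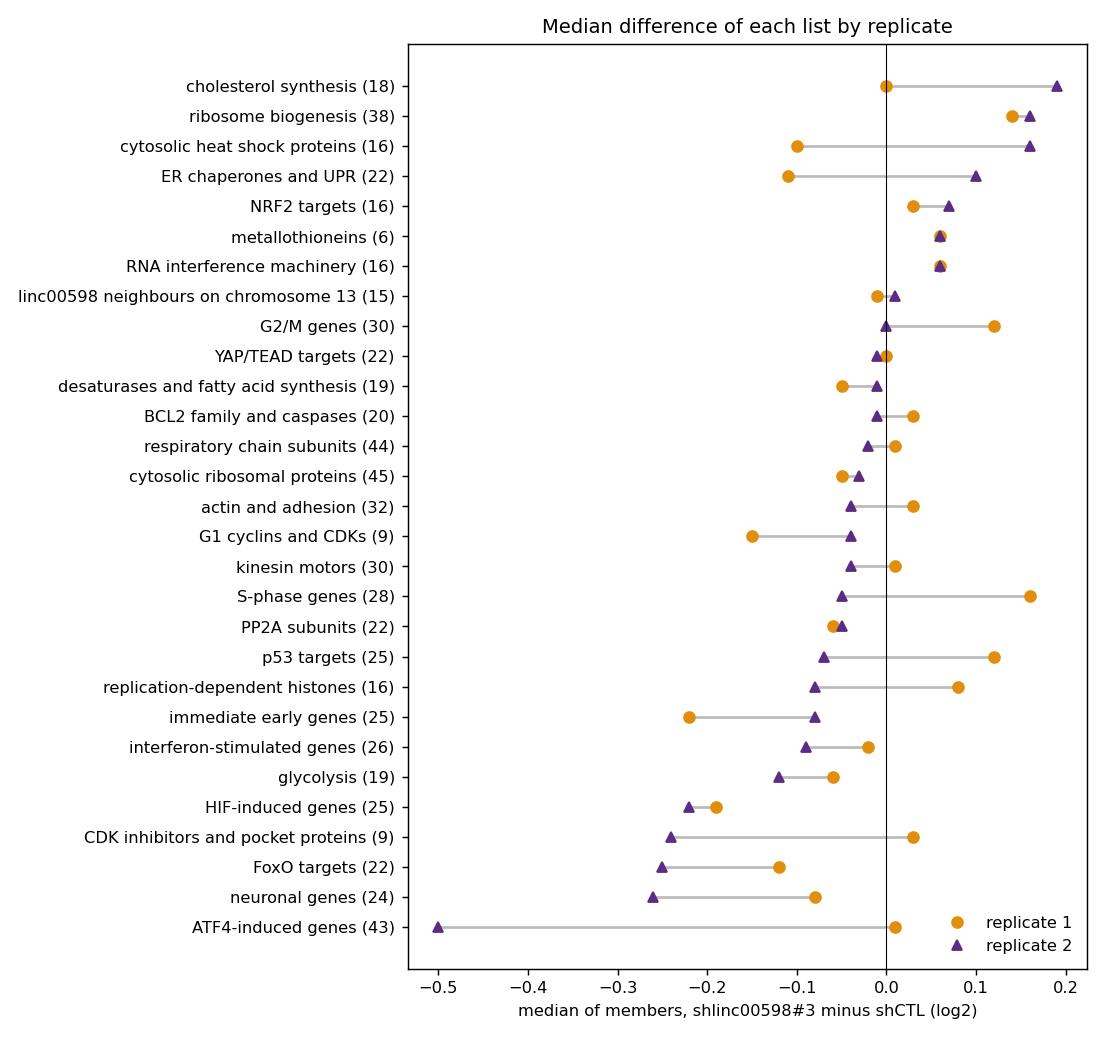
For each list, the median log2 difference of its detected members between shlinc00598#3 and shCTL is shown in replicate 1 (circle) and replicate 2 (triangle), joined by a grey line. ATF4-induced genes lie at 0.01 and -0.50, whereas hypoxia-induced genes (-0.19 and -0.22) and ribosome biogenesis genes (0.14 and 0.16) lie at nearly the same place in both replicates.

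To see whether any difference was particular to shlinc00598#3, the line was compared directly with shlinc00598#2 in the same fit. No member passed the threshold (0.0%), the lowest adjusted p was 0.0741, and 1408 members had an unadjusted p under 0.05 (8.39%). With no replicate block the count was 0 as well. KIF1A was lower in shlinc00598#3 than in shlinc00598#2 by 0.92 on the log2 scale (interval of the difference -1.22 to -0.62, adjusted p = 0.0874). PPP2R2C differed by -0.80 (interval -1.08 to -0.52, adjusted p = 0.0958). In TNMD and SCD5 the lines were closer, with differences of -0.34 and -0.35 and adjusted p-values of 0.43 and 0.453. Against shCTL, which both comparisons share, shlinc00598#2 had -0.39 for KIF1A, -0.28 for PPP2R2C, -0.78 for TNMD and -0.63 for SCD5. CCND2 was at -1.31 in shlinc00598#2 against -0.93 in shlinc00598#3, and the difference of 0.39 had an interval from -0.03 to 0.80. HES5 was at -0.04 in shlinc00598#2 (difference -0.88, adjusted p = 0.132), and BASP1 was at -0.73, nearly the value of shlinc00598#3 (difference 0.01, interval -0.22 to 0.25). NUP43 and TRMT2B were higher in shlinc00598#3 than in shlinc00598#2 by 1.25 and 1.09, with adjusted p-values of 0.179 and 0.238. Of the lists described above, the medians in shlinc00598#3 and in shlinc00598#2 were -0.22 and -0.25 for hypoxia-induced genes, -0.19 and -0.21 for FoxO targets, -0.29 and -0.23 for ATF4-induced genes, -0.19 and -0.17 for immediate early genes, -0.17 and -0.15 for neuronal genes and 0.14 and 0.23 for ribosome biogenesis, all against the same shCTL arrays. The replication-dependent histone genes, whose near-identical copies make them uncertain, were at a median of -0.02 in the former line and 0.43 in the latter.

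**Figure D5:**
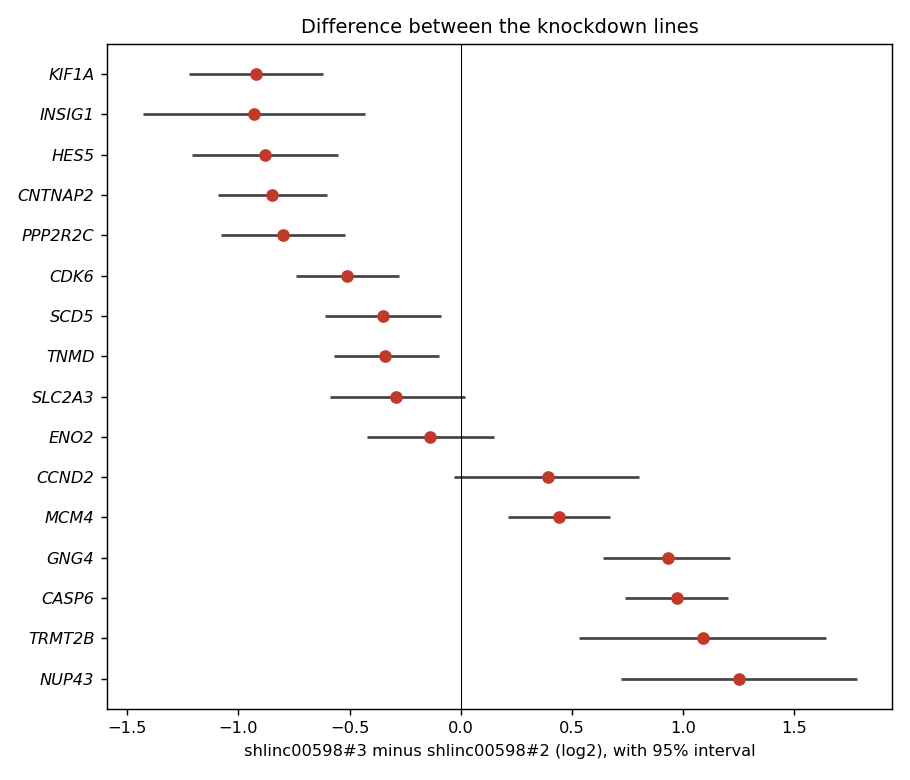
Points give the log2 difference between shlinc00598#3 and shlinc00598#2 for 16 genes, with bars for the 95% interval from the limma fit and a line at 0. KIF1A lies at -0.92, ENO2 at -0.14 with an interval across 0, and NUP43 at 1.25, and no gene had an adjusted p under 0.05.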

How the data were processed

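RNA of 3 stable HEK293T lines was hybridized to Illumina HumanHT-12 v4 arrays, with 2 arrays per line. Probe signals were exported by the authors with GenomeStudio 2011.1. The deposited table used here gives, per probe, a linear intensity before normalization and a detection p-value. A second deposited table gives log2 intensities that the authors had quantile-normalized. In 4 of its 6 columns the values match another array than the one described (to within 0.00417 log2), so it served as an alternative only, with its columns given to the arrays they match.

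The intensities of all 6 arrays were quantile-normalized without background correction and put on the log2 scale with limma 3.58.1 in R 4.3.3, so folds near the background are compressed. Precision is limited by the small number of arrays. Of 47321 probes, 30113 carry 1 symbol, 8 several and 17200 none. Probes were kept if both arrays of any line detected them (detection p under 0.05); the brightest kept probe represented a gene, and an unnamed probe stood for itself. One limma fit to the 6 arrays with the replicate number as a block gave the differences, with Benjamini-Hochberg adjustment over all 17220 genes and unnamed probes and a threshold of 0.05. The block was used because arrays of the same replicate number deviate together between every pair of lines (r = 0.76, 0.742 and 0.827 across genes); the labels give only the number.

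Genes named are those called, up to 12 in each direction with the largest difference among those past 1.4-fold in both replicates, genes the study names, up to 4 per list with the lowest p, and up to 5 in each direction that differ most between the knockdown lines. Of these, those with the clearest account are described. RIN2, AMT, KIF1B, KIF1C, PPP2R2A, PPP2R2B, PPP2R2D, CCND3, ENO1, SYN1 and CHAC1 were named after their values were seen. The members, lists and tests were chosen with earlier results of these data known. Lists are described by counts and medians. Promoters and coordinates come from RefSeq on GRCh38.p14. FASLG was not detected. Alternatives were no block, background correction with neqc (offset 16), scaling to the median, no or a stricter detection filter, the mean of a gene's probes, only the 4 arrays of both lines, the processed values, the methods' t-test, a 1.5-fold criterion, and each array left out in turn.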

Additional observations from a re-analysis of the deposited data

Results flagged for a closer look

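Several genes differed from shCTL in opposite directions in the 2 knockdown lines, in both replicates of each. The difference between shlinc00598#3 and shlinc00598#2 was tested directly in the limma fit with the replicate block, and in none did it pass the threshold. Since both lines were set against the same shCTL arrays, the value of the difference itself is the one to read. CNTNAP2, CASP6 and GNG4 were named because they differ most between the lines, so their differences are not independent evidence. The share of all members with opposite signs was not counted.

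CNTNAP2, a neurexin family protein of neurons, was lower in shlinc00598#3 (-0.53 and -0.76) and higher in shlinc00598#2 (0.25 and 0.15), a difference of -0.85 (adjusted p = 0.0741). CDK6 was lower in shlinc00598#3 (-0.34 and -0.43) and higher in shlinc00598#2 (0.15 and 0.10), a difference of -0.51 (adjusted p = 0.19). MCM4 was higher in shlinc00598#3 (0.30 and 0.30) and lower in shlinc00598#2 (-0.18 and -0.10), a difference of 0.44 (adjusted p = 0.252). SYN1 was higher in shlinc00598#3 (0.49 and 0.14) and lower in shlinc00598#2 (-0.24 and -0.02), a difference of 0.45 (adjusted p = 0.419).

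In the remaining genes most of the difference lay in shlinc00598#2. CASP6, an effector caspase, was near shCTL in shlinc00598#3 (0.01 and 0.12) and lower in shlinc00598#2 (-0.92 and -0.89), a difference of 0.97 (adjusted p = 0.0741). Further CASP6 probes, detected on all 4 arrays of shCTL and shlinc00598#3, were at 0.02 and -0.29 in shlinc00598#3 against shCTL. GNG4, a G protein gamma subunit, was at 0.34 and 0.07 in shlinc00598#3 and at -0.48 and -0.95 in shlinc00598#2, a difference of 0.93 (adjusted p = 0.0754).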

How the results depend on the processing

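The count of members called, 4 with the block, was 0 with no replicate block, 0 with neqc, 0 with the methods' t-test, 2 with the stricter detection filter, 2 with the mean of a gene's probes, 44 with only the 4 arrays of both lines, 62 with no detection filter and 280 with median scaling. It was 0 to 190 with 1 array left out, where the lone array of a line is assumed to vary like the others. The processed values, given to the arrays they match, hold the same data and gave 4. The variance that limma shares between genes carried a prior weight of 7.28 degrees of freedom in the fit reported, 2.7 with no block and 128 with median scaling. Leaving out the block changed no other call. Members at least 1.4-fold lower and higher in the mean were 641 and 481 with neqc, and 86 and 60 at 1.5-fold. With 1 array left out they were 221 to 360 lower and 95 to 340 higher, and the lower share was 47.0% to 69.9%. In both replicates neqc gave 249 lower and 154 higher. Against shlinc00598#2, median scaling called 243 and no detection filter 28.

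Of 87 named genes, a few near 0 or with unlike replicates changed sign. With the mean of a gene's probes CDKN1B was at -0.06, CASP6 at -0.07 and KIF1B at 0.04, and with median scaling CDKN1B was at -0.02. With 1 array left out, FOXO1 ranged from -0.13 to 0.09, DDIT4 from -1.59 to 0.16, CHAC1 from -1.47 to 0.72, PPP2R2B from -0.23 to 0.02, PPP2R2D from -0.18 to 0.18, CCND3 from -0.15 to 0.09, SREBF1 from -0.38 to 0.07, CDK4 from -0.04 to 0.10, CDKN1A from -0.29 to 0.03, CDKN1B from -0.23 to 0.25 and HSPA8 from -0.02 to 0.61. The cause of these changes was not tested.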
